A study of Saccharomyces cerevisiae with 28 samples.

Results

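The MNase-seq profiles of WT yeast arrested in G1 and in G2 were compared base by base across the spacer that holds the replication origin of the ribosomal DNA (rDNA). The libraries were chosen by their labels, WT in G1 and WT in G2, and they are 2 of the 28 libraries of the series, with 1 library per arrest. Both came from the WT strain (MATa his3 leu2 met15 ura3 hmlα::HygR). The G1 cells were arrested with alpha factor and the G2 cells with nocodazole, and both were crosslinked with formaldehyde before their nuclei were digested. The names of the libraries give 7.5 U of MNase for G1 and 3.75 U for G2, so the arrest and the amount of enzyme cannot be told apart. No difference between these libraries has a replicate check, and no test was run. Reads from all rDNA copies of the culture fall on the few copies in the reference, so single repeats cannot be seen.

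The rDNA of Saccharomyces cerevisiae is a tandem array of the genes for ribosomal RNA. IGS2, the spacer between the start of the 35S gene and the 5S gene, holds a replication origin (rARS) and a site for the transcription factor Reb1. Origins are licensed in G1, when the origin recognition complex (ORC) and Cdc6 load the Mcm2-7 helicase as a double hexamer, forming the pre-replicative complex (pre-RC). In G2 new loading is blocked. Micrococcal nuclease (MNase) cuts DNA that no protein covers, so that a nucleosome or another bound complex leaves a protected fragment. The deposited depth has no fragment lengths, so a nucleosome and a smaller complex at the same bases cannot be told apart by size. It counts reads of 50 bases from the ends of fragments. The middle of a long fragment therefore adds no depth, whereas a short fragment can be covered throughout.

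The interval runs from chrXII:458000-460000 of the sacCer3 genome (R64 of RefSeq). From left to right RefSeq places there the start of the 35S gene (RDN37-1, minus strand, up to base 458432), the spacer NTS2-1 (chrXII:458433-459675), in which the origin ARS1200-1 lies (chrXII:458991-459097), the 5S gene (RDN5-1, chrXII:459676-459796, plus strand) and the first part of the next spacer, NTS1-2. Distances below are counted from the first base of ARS1200-1, with negative values to the left, toward the 35S gene.

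The sequences that carry the comparison are given here from the plus strand of the reference. The first is the stretch around the left edge of the origin, chrXII:458862-459046, with the longest run of bases that were more than 2-fold deeper in G1 under both scalings in capitals (chrXII:458931-458999). It is intergenic.
Origin edge: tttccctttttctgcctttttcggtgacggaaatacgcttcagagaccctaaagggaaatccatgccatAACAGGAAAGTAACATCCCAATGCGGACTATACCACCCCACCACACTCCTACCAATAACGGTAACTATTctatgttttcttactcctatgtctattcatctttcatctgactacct

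The second is ARS1200-1 itself, with the 9 bases in capitals that belong to the same run.
ARS1200-1: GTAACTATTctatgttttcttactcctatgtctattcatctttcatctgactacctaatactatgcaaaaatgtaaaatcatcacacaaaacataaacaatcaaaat

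The third is the Reb1 footprint (chrXII:458591-458721), the reference for one of the scalings, with the core Reb1 motif in capitals.
Reb1 footprint: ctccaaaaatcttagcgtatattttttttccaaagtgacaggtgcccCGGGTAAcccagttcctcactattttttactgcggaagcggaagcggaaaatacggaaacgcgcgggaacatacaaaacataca

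The motif TTACCCG was searched on both strands. It occurred 1 time in the whole interval, on the minus strand at chrXII:458638-458644, inside the footprint. Of 8230 consecutive windows of the same 131 bases along chromosome XII, 0.899% held it. The origin was rich in A and T (72.9%), whereas the run of higher depth beside it (55.1%) was not, against 59.1% over the interval.

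The libraries were of similar size. With reads of 50 bases, the depth sums to 1777673 reads for G1 and 1879109 for G2, and a base was covered on average 44420 and 46954 times. Each library was scaled to its own summed depth ("total-scaled") and, separately, to its mean depth over the Reb1 footprint, 75420 in G1 and 88447 in G2 ("Reb1-scaled"). The choice of scaling shifts every base by the same 0.15 on the log2 scale. The median log2 ratio of G1 to G2 was -0.15 over all bases when total-scaled and -0.00241 when Reb1-scaled, so that changes of that size have no fixed sign.

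**Figure D1:**
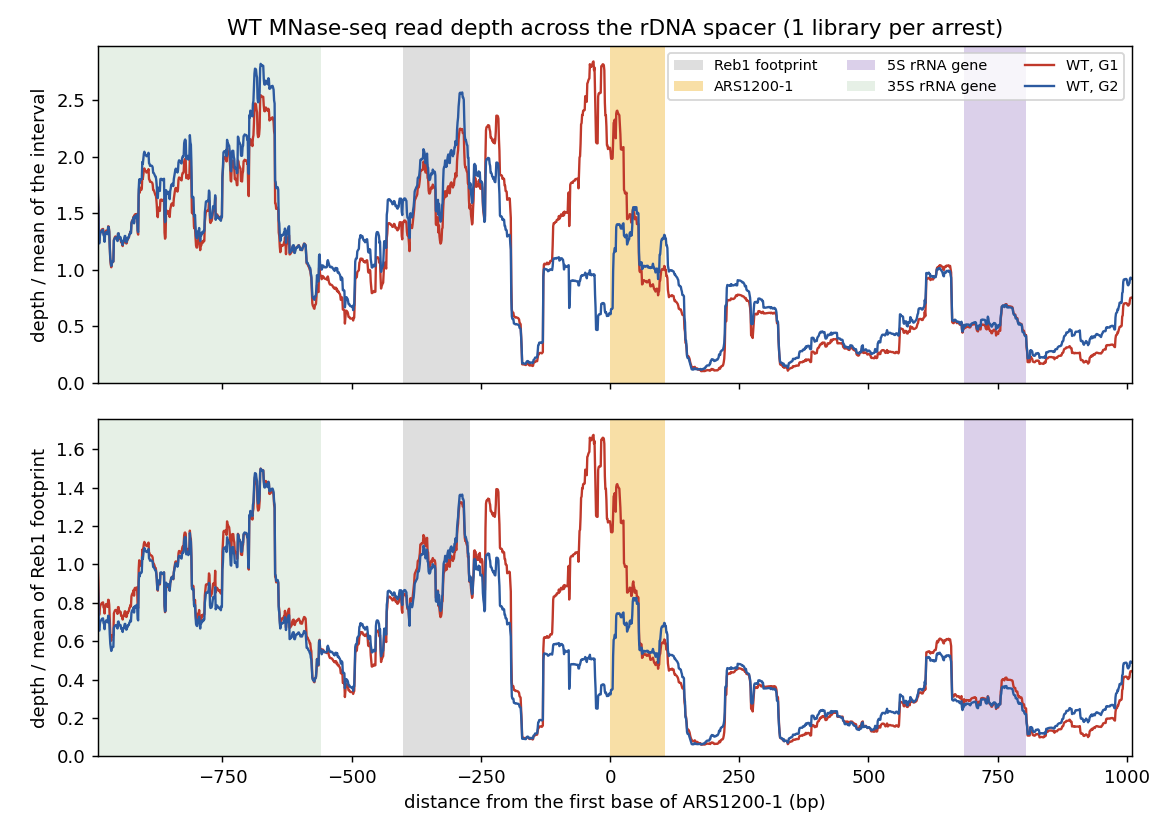
Read depth at each base in WT G1 (red) and WT G2 (blue), divided by the mean of the interval (upper panel) or by the mean of the Reb1 footprint (lower panel), against the distance from the first base of ARS1200-1 in bp; shaded spans mark annotated features and the Reb1 footprint. The G1 curve reaches 1.68 times the Reb1 mean at -32 bp, where the G2 curve is at 0.51, and elsewhere the curves have similar shapes.

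One place differed by more than 2-fold. Total-scaled, 76 bases (3.8% of the interval) were more than 2-fold deeper in G1, and 69 of them formed 1 unbroken run, chrXII:458931-458999, from -60 to 8 bp. The other bases past 2-fold lay just left of it, at chrXII:458912-458913 and chrXII:458925-458929. Reb1-scaled, 91 bases (4.55%) were more than 2-fold deeper in G1, all in 1 run, chrXII:458912-459002. No base was more than 2-fold deeper in G2 under either scaling (0 bases, 0%), although 124 bases (total-scaled) and 72 bases (Reb1-scaled) were once the lowest depth of each library was subtracted.

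In the run of 69 bases the mean depth was 107986 in G1 against 37103 in G2. The libraries did not overlap there, since the lowest G1 depth was 81998 and the highest G2 depth 54212. The run held 8.38% of all depth in G1 and 2.72% in G2, a log2 ratio of 1.62 when total-scaled (95% counting interval 1.61 to 1.64), or 3.08-fold. Reb1-scaled, the ratio was 1.77 (1.76 to 1.79), or 3.41-fold. The run was picked by this same ratio, so these values describe it. The intervals treat reads as independent and cover counting error only; the reads are paired ends of amplified fragments, and the spread between cultures is not in them.

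The edges of the run were not sharp steps. At its left end, base 458931, G1 stood at 81998 and G2 at 40459, a total-scaled 2.14-fold, and the base before it was at 2.00-fold. At its right end, base 458999, the fold was also 2.00. The bases just inside and just outside the threshold thus had nearly the same ratio.

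Followed from left to right every 10 bases, the difference grew and fell within a short distance. At -130 bp the depths were 12067 and 17017, which left G1 lower, at 0.75 of G2 when total-scaled. At -120 bp the depths were 46601 and 46343, and the profiles were nearly level. At -90 bp they were 67059 and 49644, a fold of 1.43.

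At -60 bp the fold had reached 2.14 and at -40 bp, with depths of 119689 and 45121, it was 2.80. At -20 bp the depths were 113971 and 28480, a fold of 4.23. The highest ratio of the interval lay at base 458966 (-25 bp), with 94133 in G1 and 21945 in G2, 4.53-fold total-scaled and 5.03-fold Reb1-scaled. This base had the lowest G2 depth of the window of the second nucleosome (chrXII:458911-459081), whereas the G1 maximum, 126382, lay at -32 bp.

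Inside the origin the difference faded. At the first base of ARS1200-1 the depths were 92374 in G1 and 28918 in G2, a fold of 3.38. At 20 bp they were 97775 and 64844, a fold of 1.59, and at 50 bp they were 64979 and 72875, at which G1 was slightly lower (0.94). Over the whole of ARS1200-1 the mean depth was 61936 and 55564, a log2 ratio of 0.24 total-scaled and 0.39 Reb1-scaled. The left edge of the origin was thus deeper in G1, and its right part was level or lower.

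**Figure D2:**
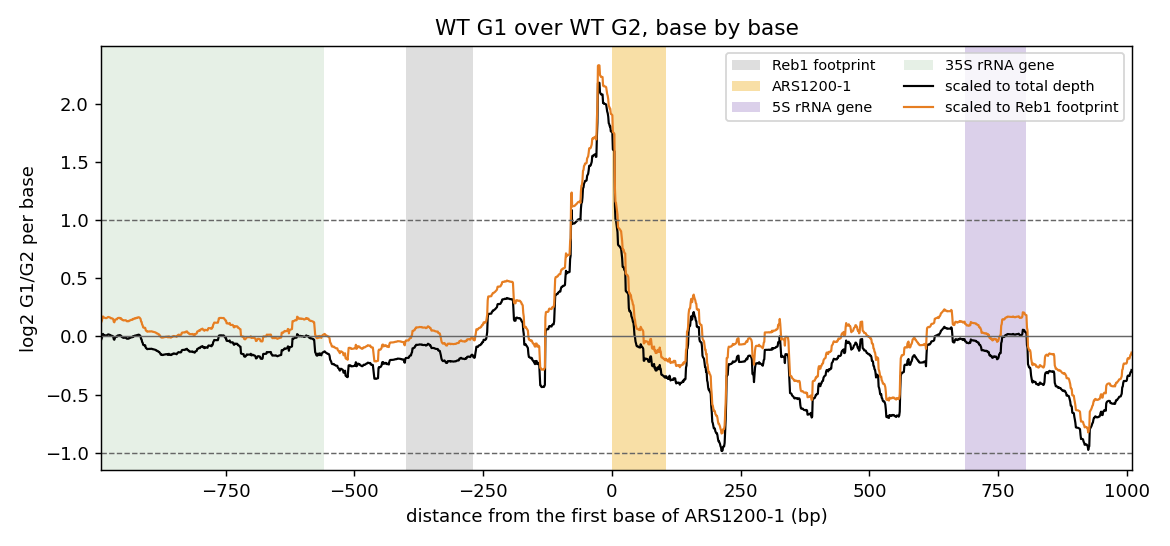
The log2 ratio of WT G1 to WT G2 at each base (y axis) against the distance from the first base of ARS1200-1 in bp, scaled to total depth (black) or to the Reb1 footprint (orange); dashed lines mark 2-fold. The curves pass the upper line only beside the origin, peak at -25 bp (2.18 and 2.33), and do not pass the lower line, where the lowest values are -0.98 and -0.83 at 213 bp.

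The depth gained in G1 formed a single mound. As the difference of the total-scaled profiles, it peaked at -14 bp, stood above 50% of its maximum from -59 to 10 bp, a width of 70 bp, and was above 0 without a break from -129 to 44 bp. Its centre of mass was -30.3 bp, and 80.5% of it lay left of the origin's first base. The mound held 8.18% of all G1 depth and 88.9% of all depth that was higher in G1 than in G2 anywhere in the interval. With the Reb1 scaling this width was 78 bp, the centre of mass -30.8 bp and the latter share 70.9%.

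The mound overlapped signal from another assay of the series. In Mcm2-ChEC, Mcm2 carries a fused MNase that is switched on by calcium and cuts the DNA next to Mcm2. In 2 libraries of G1-arrested SIR2 cells (MCM2-3xFLAG-MNase-KanMx), the highest depth lay at -39 bp in both. The run of 69 bases, 3.84% of the bases up to the end of the 5S gene, held 33.8% and 40.5% of their depth. In WT MNase-seq it held 8.65% in G1 and 2.85% in G2 of the same span. The names of the Mcm2-ChEC libraries carry different labels after the strain number, with Cu in the second only. Their treatment may not have been the same.

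**Figure D3:**
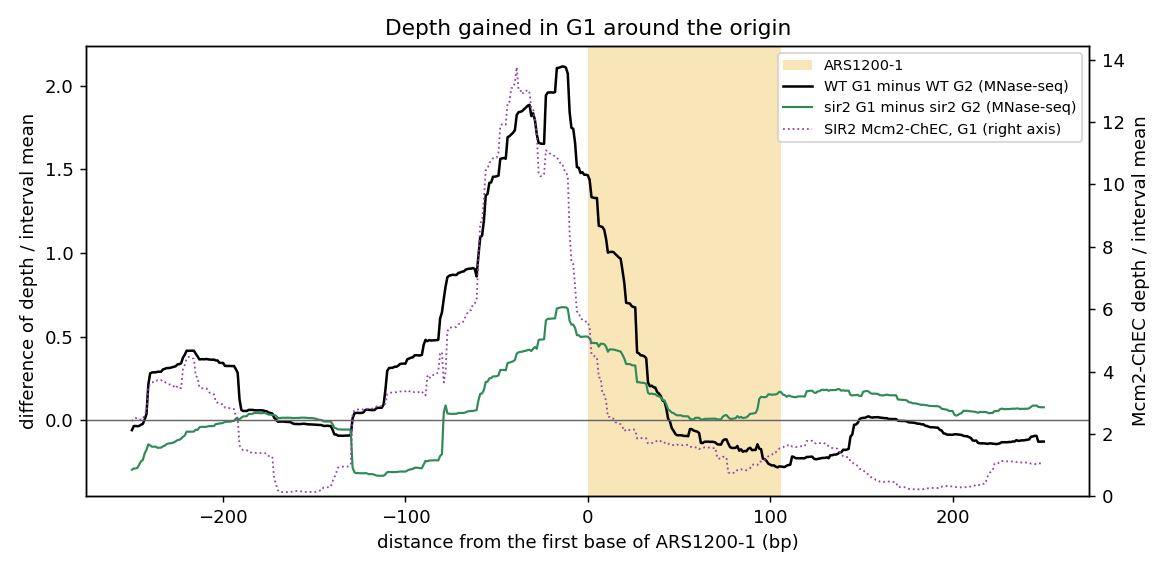
Left axis, depth divided by the interval mean in G1 minus the same in G2, for WT (black) and sir2 (green) MNase-seq; right axis, depth over the interval mean in a SIR2 Mcm2-ChEC library from G1 (purple, dotted); x axis, distance from the first base of ARS1200-1 in bp. The WT difference peaks at -14 bp and the Mcm2-ChEC depth at -39 bp, and both are high on the left edge of the shaded origin.

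Sharp edges in the profiles marked where many reads began or ended. A pile of reads that begin or end at one base appears as a rise in depth followed by a fall 50 bases later, a block as long as a read, although such a block does not say whether its reads are the left or the right ends of fragments. The height of a block was taken as the smaller of the rise and the fall. Each step is the net of reads that begin and reads that end there, so a lower block need not mean fewer reads. Of the 20 highest blocks of each library, 17 were shared, as were 16 of the 20 largest single rises and 13 of the 20 largest falls.

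The 3 blocks that were in the top 20 of G1 alone lay at the run. The block at chrXII:458935-458984 had a height of 7392 in G1 and 1007 in G2, or 9.80% and 1.14% of the Reb1 mean. The block at chrXII:458968-459017 had 16808 and 5116 (22.3% and 5.78%), and the block at chrXII:458974-459023 had 10392 and 4113 (13.8% and 4.65%).

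Most other blocks around the origin were shared. In the top 20 of G2 alone was chrXII:459087-459136, which overlaps the right end of ARS1200-1, at 5.55% of the Reb1 mean in G1 and 8.01% in G2. The blocks at chrXII:458428-458477 and chrXII:458695-458744, farther left, were also in the top 20 of G2 alone. Their Reb1-scaled ratios of G1 to G2 were 0.91 and 1.13. The block at chrXII:458914-458963, which overlaps the run, was 14.2% of the Reb1 mean in G1 and 9.88% in G2, higher in G1 by a ratio of 1.44. The block at chrXII:458862-458911 had a height of 13229 in G1 and 17801 in G2, or 17.5% and 20.1% of the Reb1 mean, which its fall sets. Its rise was larger in G1, 30081 against 27026, or 39.9% and 30.6% of the Reb1 mean. The net steps at the ends of this block thus differed in opposite directions. The block at chrXII:458997-459046 had 7132 in G1 and 15344 in G2, or 9.46% and 17.3%, a ratio of 0.55 that its rise sets. Its fall was nearly level when Reb1-scaled, with steps of -13328 in G1 and -16126 in G2 (-17.7% and -18.2% of the Reb1 mean). The lower height in G1 thus rests on the rise alone. The first base of chrXII:458862-458911 and the last base of chrXII:458997-459046 are the ends of the first sequence above, which is 185 bases long. The run lies mostly between these blocks. How far its width and height come from reading only the ends of fragments was not tested. Blocks such as chrXII:458293-458342, in the 35S gene, had the same height in both, 27.7% and 27.5% of the Reb1 mean.

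A lesser rise stood at the other side of the gap to the left. The blocks at chrXII:458750-458799 and chrXII:458751-458800, at the left of the window of the first nucleosome, were 31.6% and 13.0% of the Reb1 mean in G1 and 19.2% and 8.18% in G2, ratios of 1.64 and 1.59. The window of the first nucleosome as a whole (chrXII:458721-458901) had a mean depth of 53570 in G1 and 50809 in G2, a log2 ratio of 0.16 total-scaled and 0.31 Reb1-scaled. None of its bases was more than 2-fold deeper in G1.

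Right of the origin the largest deficits of G1 lay in low stretches. At a threshold of 1.5-fold, 151 bases (7.55%) were lower and 105 (5.25%) higher in G1 when total-scaled. Reb1-scaled, 60 bases (3%) were lower and 121 (6.05%) higher, so that the scaling turned the balance of the calls. The lower bases fell into 4 stretches of at least 20 bases when total-scaled, and parts of 2 of these remained when Reb1-scaled.

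The deepest was chrXII:459184-459212, at the right end of the valley beyond the origin, in the window of the third nucleosome, with its lowest base in capitals below.
Lower stretch: taactactataaaacaacctTtagactta
At that base, 459204 (213 bp), G1 had a depth of 5517 and G2 one of 11531, the lowest ratio of the interval, 0.51 total-scaled and 0.56 Reb1-scaled. Over the stretch the mean depth was 5694 and 10888, a log2 ratio of -0.86 total-scaled and -0.71 Reb1-scaled.

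The stretch that reached farthest was chrXII:459882-459950, right of the 5S gene in NTS1-2, with mean depths of 10885 and 19309 and log2 ratios of -0.75 and -0.60. The other stretches were chrXII:459357-459380, with 8501 and 14062 (-0.65 and -0.50), and chrXII:459522-459550, with 12039 and 20342 (-0.68 and -0.53). In all 4 the mean depth was below the interval mean in both libraries. The sequence of chrXII:459882-459950 occurs 1 time on chromosome XII of the reference. Those of the other stretches, the origin and the Reb1 footprint occur 2 times, and how reads that match both places were assigned is not given.

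Low bases in general were lower in G1. Outside the run and 100 bases on each side of it, the fifth of the bases with the lowest mean level of the 2 libraries (0.109 to 0.343 of the interval mean, 347 bases) had a median log2 ratio of -0.40 total-scaled and -0.25 Reb1-scaled. The fifth with the highest level (1.63 to 2.69 times the mean, 346 bases) had -0.13 and 0.02. The G1 library was digested with the larger amount of MNase, and the part of this amount in the lower valleys was not tested.

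The windows of the nucleosomes right of the origin followed. The third window (chrXII:459091-459251) had a mean depth of 20558 in G1 and 27098 in G2, a log2 ratio of -0.32 total-scaled and -0.17 Reb1-scaled. The fourth and the fifth were at -0.27 and -0.29 total-scaled and at -0.12 and -0.14 Reb1-scaled. The sixth, which overlaps the start of the 5S gene, was at -0.04 and 0.11, and its sign turned with the scaling.

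The rRNA genes changed little. The part of the 35S gene in the interval had a mean depth of 69818 in G1 and 78715 in G2, a log2 ratio of -0.09 total-scaled and 0.06 Reb1-scaled, and over its 433 bases the total-scaled ratio stayed between -0.19 and 0.02. The 5S gene had 23546 and 25754, with ratios of -0.05 and 0.10. For both genes the sign turned with the scaling. The spacer between the 35S gene and the Reb1 footprint had 43344 and 53911, -0.24 and -0.09. The part of NTS1-2 in the interval changed more, with 13342 and 20266, -0.52 and -0.37, and was lower in G1 under both scalings.

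Away from the origin, the profiles had similar shapes. Over all bases the Pearson correlation of the depths was 0.852, and outside the run and 100 bases on each side (1732 bases) it was 0.986; neighbouring bases share reads, so these values only describe the curves. To turn one total-scaled profile into the other, 9.2% of the depth would have to be placed at other bases.

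After smoothing over 11 bases, G1 had 22 local maxima and G2 had 24, and 18 of them matched within 10 bp. Of these matched pairs, 14 were at most 2 bp apart and 8 at the same base. The largest shift, 8 bp, was that of the maximum in the run, at -35 bp in G1. The lowest base of both libraries was the same one, 459168, in the valley right of the origin, with 4550 in G1 and 5442 in G2. The other 4 maxima of G1 and 6 of G2 had no match. Among these were a G1 maximum in the run, at -16 bp (1.60 times the Reb1 mean, against 0.354 at that base in G2), and G2 maxima at -104 and 49 bp. The rest lay farther away, at -220, 434 and 653 bp in G1 and at -779, -425, 410 and 637 bp in G2. Most positions of high depth were thus shared at this prominence. The unmatched maxima lay both at the origin and away from it.

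The other MNase-seq libraries of the series give a scale for these differences, although the first comparison below shares the WT G1 library and the second shares the cdc6-1 library at 23° with the first. The cdc6-1 strain carries a temperature-sensitive Cdc6 (cdc6-1(ts)::KanMx) and the same auxotrophies as WT, without the listed hmlα::HygR. It was synchronised with nocodazole, then released and arrested in G1 with alpha factor at the permissive 23° and digested with 7.5 U. Between WT G1 and this library 0 bases (0%) were more than 2-fold apart in either direction when total-scaled, and over the run the log2 ratio was 0.19. Over all bases the median absolute log2 ratio was 0.23, against 0.19 for WT G1 and G2, whereas the Pearson correlation of the depths was 0.945 against 0.852 and the depth placed at other bases 8.89% against 9.2%. The spacer left of the Reb1 footprint was at 0.68, and the largest single difference was 0.97.

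The cdc6-1 libraries differ in temperature, 23° or the restrictive 37°, and in the length of the arrest, but not in the arresting agent or the amount of MNase, 7.5 U in both. Total-scaled, 93 bases (4.65%) were more than 2-fold deeper at 23° and 78 bases (3.9%) less deep. The 93 bases formed 1 run, chrXII:458896-458988, and over the WT run of 69 bases the log2 ratio was 1.52, next to 1.62 for WT G1 over G2. These libraries are also 1 per condition, and the difference between the WT and the cdc6-1 ratio was not tested. The run was picked by the WT ratio, which favours a higher WT value.

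The sir2 strain has the WT genotype with sir2Δ::KanMx, which removes the histone deacetylase Sir2. It was digested with the same pair of amounts as WT, 7.5 U in G1 and 3.75 U in G2. Total-scaled, 31 bases (1.55%) were more than 2-fold deeper in G1, chrXII:458966-458996, and no base (0 bases, 0%) was so in G2. Over the WT run the sir2 log2 ratio of G1 to G2 was 0.67 total-scaled and 0.76 Reb1-scaled. It was lower than the WT ratio, with 1 library in each of the 4 conditions and no test of the difference. The run was picked for its high WT ratio, so part of this gap can come from that choice. The highest sir2 ratio was 2.55-fold at -7 bp, against 4.53-fold at -25 bp in WT.

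**Figure D4:**
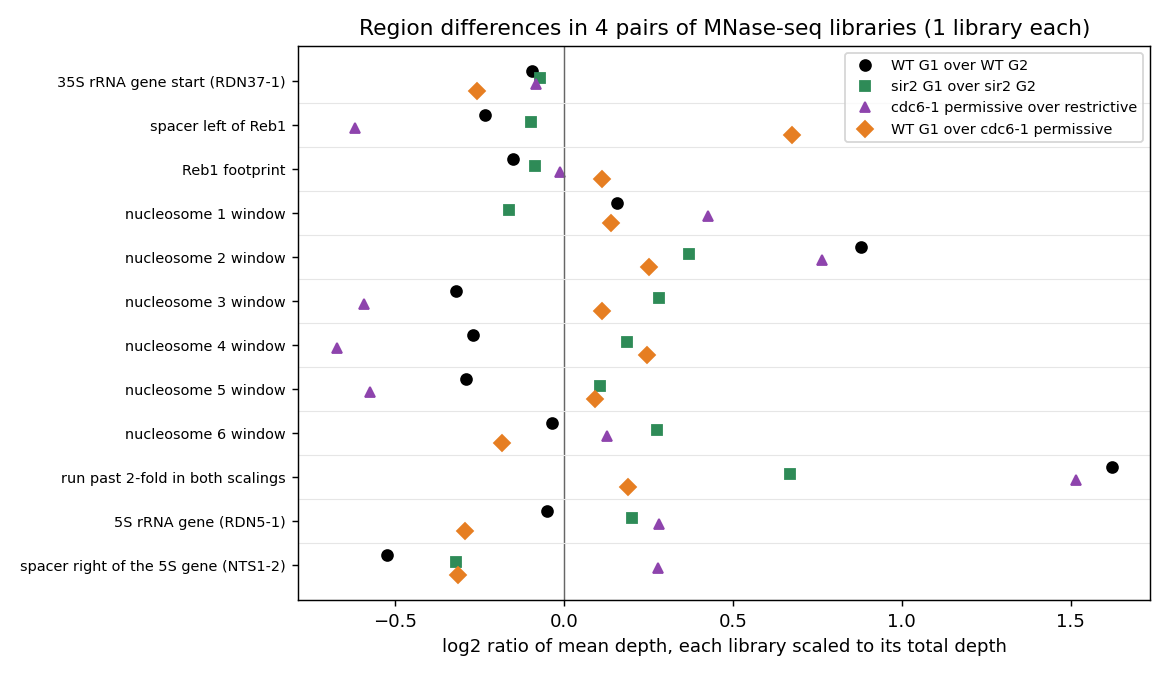
The log2 ratio of mean depth (x axis, each library scaled to its total depth) in each region (y axis) for WT G1 over G2 (circles), sir2 G1 over G2 (squares), cdc6-1 at 23° over 37° (triangles) and WT G1 over cdc6-1 at 23° (diamonds), with 1 library each. In the run, picked by the WT ratio of G1 to G2, the first 3 pairs are at 1.62, 0.67 and 1.52. The last is at 0.19. In the windows of the third to the fifth nucleosome WT and sir2 lie on opposite sides of 0.

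Sonicated DNA, which was not cut by MNase, was close to even across the run. In 4 libraries of sonicated DNA without the inserted terminator, from fob1Δ::HIS3 strains with expanded rDNA (SIR2 and sir2, in G1 and in S phase) mapped to a modified reference, the depth in the run was 1.04 to 1.08 times the mean up to the end of the 5S gene. Right of the 5S gene, which this mean leaves out, their depth fell as low as 23 in both G1 libraries and 3 and 4 in S phase. In WT MNase-seq the ratio of the run to the same mean was 2.25 in G1 and 0.742 in G2. In read depth, WT G1 was thus above and WT G2 below the level of an evenly covered stretch. The run was picked for its ratio of G1 to G2, which favours such a contrast. G2 was also below the interval mean in the third to the sixth nucleosome window (0.58, 0.46, 0.39 and 0.69 times the mean). It was above that mean in the first and second (1.08 and 1.01). The run lies in the window of the second nucleosome, and only the ends of fragments were read. A low depth there therefore need not mean that fewer fragments spanned the run.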

How the data were processed

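The authors sequenced paired ends of 50 bases and aligned them with gsnap. The submitters' processing notes name GSNAP, Picard and bedtools, without versions, and the build sacCer3. The deposited coverage (signal) is the whole-number read depth at each base, not scaled to library size and without fragment lengths. MNase amounts were read from the names of the columns. Of the 28 libraries, 16 columns were not used here.

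Ratios were computed at each base after scaling to total depth or to the mean of the Reb1 footprint, without a pseudocount, since no depth was 0. Bases past 2-fold were counted, and runs of at least 20 bases past 2-fold in both scalings were named (1 run), together with annotated features, the bases of highest and lowest ratio, local maxima (running mean of 11 bases, prominence of 5% of the Reb1 mean) and the 20 largest steps in each library. Nucleosome windows were set as distances from the origin. The windows and lists were chosen with earlier results of these data known. The blocks, the 1.5-fold stretches, the division by depth level and the mound were added after the data were seen. Counting intervals (95%) used depth divided by 50 as reads. With 1 library per arrest there were no replicates, so neither a test nor leaving out a replicate was possible. Mcm2-ChEC and sonicated libraries were matched to their groups by the strain number in the column name. Alternatives were other scalings, subtraction of the lowest depth, smoothing, other folds and narrower regions. The scripts were tested on simulated profiles. Python 3.11.15, numpy 2.4.6, scipy 1.17.1 and matplotlib 3.10.9 were used.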

Additional observations from a re-analysis of the deposited data

Results flagged for a closer look

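In 6 places WT and sir2 libraries moved to opposite sides of 0 from G2 to G1 under both scalings, by at least 0.1 on the log2 scale in each. The difference was not tested, since each condition has 1 library. Total-scaled, the log2 ratio of G1 to G2 over the window of the third nucleosome was -0.32 in WT and 0.28 in sir2. The fourth window gave -0.27 and 0.19, and the fifth -0.29 and 0.11. The 1.5-fold lower stretches of WT inside these windows gave -0.86 in WT and 0.22 in sir2 (chrXII:459184-459212), -0.65 and 0.19 (chrXII:459357-459380), and -0.68 and 0.16 (chrXII:459522-459550). These stretches were picked for being low in WT, so their WT values are a description. They also share their reads with the windows around them, so the 6 places are not separate observations. The strains were digested with the same pair of MNase amounts.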

How the results depend on the processing

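The run kept its direction under every setting tried. Its log2 ratio, 1.62 when total-scaled, was 1.77 with the Reb1 mean, 1.81 with the Reb1 maximum, 1.73 with the median depth, 1.75 with a total that leaves out 200 bp on each side of the origin's first base, 1.77 after the lowest depth was subtracted and 1.73 with the run narrowed by 10 bases on each side. Each lay outside the counting interval of the value it replaced, and the first 4 change the ratio by a constant, by construction. At 3-fold, 35 bases were higher in G1 when total-scaled and 50 when Reb1-scaled. The count of 0 bases lower in G1 held for 2-fold under other scalings and smoothing, and did not hold at 1.5-fold (151 total-scaled, 60 Reb1-scaled) or after the lowest depth of each library was subtracted (124 and 72). The latter divides small numbers in the valleys, since 4550 of G1 and 5442 of G2 were removed. With a prominence of 10%, 9 maxima matched instead of 18. Every other count was within 1.5 times its value in the report.

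No paired analysis was possible because each arrest has 1 library. The depth of these libraries makes counting error small, so the missing replicates, the unequal amounts of MNase and the missing fragment lengths limit these comparisons.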
